A study of Mus musculus with 6 samples.

Results

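The 10 genes followed here are 6 encoding calcium-binding proteins of the S100 family (S100a8, S100a9, S100a4, S100a6, S100a10 and S100a11) and 4 for proteins of neutrophil granules (Lcn2, Ngp, Camp and Ltf). They were chosen by symbol, with earlier results of these data known. All 10 were among the 55421 genes of the deposited table and among the 13853 genes with enough counts to test. The libraries came from wild-type mouse macrophages grown out of bone marrow with 20 ng/mL M-CSF (macrophage colony-stimulating factor), 10% serum and 1% penicillin/streptomycin. In 3 untreated wells the cells stayed in that RPMI-1640 medium. In 3 further wells they were kept for 24 h in a mixture of which 50% was conditioned medium from LL-2, a mouse line of Lewis lung carcinoma. The labels do not say whether the wells came from separate mice, how long the marrow had been cultured, or whether the conditioned medium had been topped up with M-CSF, and no medium conditioned by other cells was analysed here.

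S100 proteins are small calcium sensors with paired EF-hand motifs. S100a8 and S100a9 form calprotectin, a metal-chelating heterodimer that fills the cytosol of neutrophils and is also made by monocytes, while S100a10 binds annexin A2 at membranes and S100a11 binds annexin A1. The granule proteins are stored during neutrophil maturation: lipocalin-2 (Lcn2) captures bacterial siderophores, lactoferrin (Ltf) binds iron, cathelicidin (Camp) permeabilises microbes, and neutrophilic granule protein (Ngp) is a cystatin-like protein. Primary granules, holding myeloperoxidase and serine proteases, form in promyelocytes, and secondary granules, holding Ltf, Camp, Lcn2 and Ngp, form later under the transcription factor C/EBP epsilon. Macrophages can induce Lcn2 and S100a8 themselves, so these transcripts alone do not name a neutrophil.

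Promoter sequence was available from RefSeq (GRCm38.p6) for 9 of the 10 genes. The 6 windows shown belong to S100a8, S100a9 and Lcn2 and to Ngp, Ltf and Camp. Each is the 250 bases before the annotated start, 5′ to 3′ on the gene's strand, at chr3:90668821-90669070 (plus strand) for S100a8, chr2:32387740-32387989 (minus) for Lcn2, chr3:90695722-90695971 (minus) for S100a9, chr9:110419558-110419807 (plus) for Ngp, chr9:111019042-111019291 (plus) for Ltf and chr9:109849457-109849706 (minus) for Camp. Capitals mark matches, on either strand, to any of the motifs described next. The gene spans in the deposited table reach into each of these windows except that of S100a9, since their annotated starts differ from RefSeq's.
S100a8: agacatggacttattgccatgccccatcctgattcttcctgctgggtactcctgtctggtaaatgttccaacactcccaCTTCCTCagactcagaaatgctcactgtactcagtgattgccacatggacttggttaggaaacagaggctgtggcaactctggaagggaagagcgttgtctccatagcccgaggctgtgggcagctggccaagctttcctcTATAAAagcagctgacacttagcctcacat
Lcn2: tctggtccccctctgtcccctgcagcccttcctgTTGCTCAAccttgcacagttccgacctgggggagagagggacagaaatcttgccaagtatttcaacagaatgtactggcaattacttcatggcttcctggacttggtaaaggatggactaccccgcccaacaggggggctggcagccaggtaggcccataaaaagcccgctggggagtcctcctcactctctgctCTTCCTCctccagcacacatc
S100a9: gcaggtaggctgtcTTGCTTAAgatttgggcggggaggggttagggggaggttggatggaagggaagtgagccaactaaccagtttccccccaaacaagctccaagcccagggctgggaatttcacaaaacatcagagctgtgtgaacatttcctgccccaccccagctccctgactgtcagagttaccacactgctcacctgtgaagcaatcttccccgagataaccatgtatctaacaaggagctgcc
Ngp: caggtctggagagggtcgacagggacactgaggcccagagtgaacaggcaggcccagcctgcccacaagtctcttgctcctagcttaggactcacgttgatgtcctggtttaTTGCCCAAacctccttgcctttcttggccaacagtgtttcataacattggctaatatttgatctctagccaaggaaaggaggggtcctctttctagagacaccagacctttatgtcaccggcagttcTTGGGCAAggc
Ltf: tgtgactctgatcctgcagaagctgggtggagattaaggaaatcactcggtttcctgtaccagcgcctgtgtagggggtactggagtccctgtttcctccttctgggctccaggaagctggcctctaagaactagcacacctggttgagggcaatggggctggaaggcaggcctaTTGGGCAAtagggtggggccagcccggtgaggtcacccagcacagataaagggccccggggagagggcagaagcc
Camp: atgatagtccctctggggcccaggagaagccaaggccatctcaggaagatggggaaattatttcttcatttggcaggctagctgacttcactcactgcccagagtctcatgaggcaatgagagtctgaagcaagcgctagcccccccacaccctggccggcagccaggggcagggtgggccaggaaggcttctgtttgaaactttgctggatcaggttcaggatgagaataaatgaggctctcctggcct

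The motifs searched, on both strands, were TTGCNNAA for C/EBP factors, GAGGAAG for PU.1, TGANTCA for AP-1, TTCNNNGAA for STAT factors and TATAAA for the TATA box. For NF-kB the pattern was GGG, any pair of bases, TT, any base and CC. The C/EBP letters were found in 4 of the 9 windows (S100a9, Lcn2, Ngp and Ltf) and in 9.56% of all 32851 windows of that length. In Ngp they occurred 2 times, 138 and 11 bases before the start, and in Ltf once, 75 bases before it. Lcn2 held them 216 and S100a9 held them 236 bases before the start. The PU.1 letters occurred in S100a8, 171 bases before the start, and in Lcn2, 21 bases before it, and in 10.6% of all windows. The TATA letters lay 30 bases before the start in S100a8 and 31 in S100a4, and occurred anywhere in 12.4% of all windows. The Camp and S100a6 windows held none of the motifs, and the NF-kB and STAT letters (4.11% and 7.02% of all windows) were in none of the 9. Those of AP-1 (6.75% of all windows) occurred 2 times in S100a11. Such matches describe letters in these windows, not binding.

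Total counts ran from 24179548 to 30040682 per library, the treated ones being the deeper. Levels are given as CPM, counts per 1000000 of the TMM-scaled library total. Macrophage markers were abundant in each well: Adgre1, encoding F4/80, lay between 1931 and 2728 CPM and Csf1r, the M-CSF receptor gene, between 3796 and 6026 CPM. The leading principal component of the tested genes (61.9% of variance) separated the groups, and the next (16.7%) held the wells numbered 3 of both groups on one side and the other 4 wells on the other. Wells with the same replicate number deviated together from their group means (processing section), so values from the blocked fit are given where they change a call. Counts of cells were not measured, so fewer cells of a type and less RNA per cell cannot be told apart.

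In conditioned medium 3 of the 10 genes fell (S100a6, Camp and Ltf) and 0 rose at an adjusted p below 0.05 in edgeR's quasi-likelihood test. Over all tested genes 27.9% changed, 15.2% lower and 12.6% higher. At an unadjusted p below 0.05 the numbers were 4 lower and 2 higher, and DESeq2 called 2 higher, S100a8 and Lcn2, while limma-voom called 0. With the replicate number as a block 3 rose (S100a8, S100a9 and Lcn2) and 5 fell (S100a6, S100a11, Ngp, Camp and Ltf), where 36.3% of all tested genes changed, 17.0% higher and 19.3% lower. Over all tested genes 1749 rose and 2112 fell. Those that rose numbered 1146 without untreated replicate 2 and 1160 without conditioned-medium replicate 1, and 2656 (with 1710 lower) when scaled by the total count alone. The groups did not overlap for 5 of the 10 genes, 4 of them lower and 1 higher, against 42.8% of all tested genes, 21.6% lower and 21.2% higher. The median log2 fold change of the 10 was -0.23, beside 0.013 for all tested genes. Among the granule genes Camp and Ltf fell while Lcn2 had a positive estimate.

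**Figure D1:**
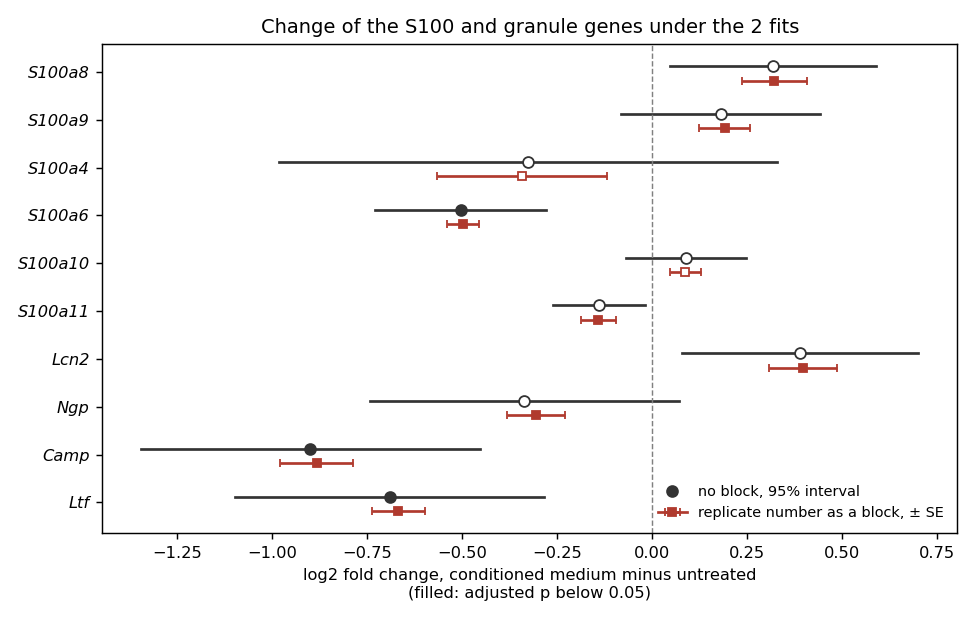
Log2 fold change (x axis, conditioned medium minus untreated) of each of the 10 genes (y axis). Circles with 95% intervals come from the fit on the group alone and squares with bars of 1 SE from the fit with the replicate number as a block. Filled symbols mark an adjusted p below 0.05, reached by 3 circles, all left of 0, and by 8 squares, 3 right of 0 and 5 left.

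The antimicrobial granule genes Camp and Ltf fell. Camp (ENSMUSG00000038357, chromosome 9, 109847379 to 109849617, GRCm38), the cathelicidin gene, was at 16.7, 10.7 and 19.2 CPM in untreated wells 1, 2 and 3 and at 8.33, 7.09 and 9.60 CPM in conditioned medium. Each treated well thus lay below each untreated well. The mean went from 15.5 ± 4.34 to 8.34 ± 1.26 CPM (SD, n = 3 per group), 1.87-fold lower, with a log2 fold change of -0.90 (SE 0.20, edgeR adjusted p = 0.00825). By replicate number Camp was 2.01-fold, 1.51-fold and 2.00-fold lower in conditioned medium.

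Ltf (chromosome 9, 111019271 to 111042767), the lactoferrin gene, was at 77.0, 55.2 and 98.4 CPM in untreated wells and at 51.2, 40.2 and 51.5 CPM in treated wells. Its groups did not overlap either, though untreated well 2 lay close above treated wells 1 and 3. It was 1.61-fold lower (log2 fold change -0.69, SE 0.18, edgeR adjusted p = 0.0190, and 1.73e-06 with the block). Ltf no longer passed the test when untreated replicate 1 was left out (adjusted p = 0.0521), without conditioned-medium replicate 2 (0.0665) and with the robust fit (0.128).

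Ngp lies on the same chromosome (chromosome 9, 110419747 to 110423012), and its counts were 86.8, 62.4 and 115 CPM untreated and 71.6, 62.0 and 76.0 CPM in conditioned medium. The groups overlapped: untreated well 2 was at the level of treated well 2 and below the other treated wells. The log2 fold change was -0.34 (95% interval -0.74 to 0.071, edgeR adjusted p = 0.206), so a fall to 0.60 of the untreated level and a rise to 1.05 times it both lie within the interval. With the block Ngp fell (log2 fold change -0.30, edgeR adjusted p = 0.00532), the ratio of treated to untreated being 0.825, 0.993 and 0.660 for numbers 1, 2 and 3. Without untreated replicate 2 the value was -0.53 (adjusted p = 0.0200), without untreated replicate 3 it was -0.094 (0.654), and without both wells numbered 3 it was -0.16 (0.385).

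These 3 genes kept the same order of wells in each group. Well 2 was lowest and well 3 highest for Ngp, Camp and Ltf among the untreated wells, and the same held in conditioned medium. For Ltf treated well 3 was highest only narrowly, at 51.5 CPM with the next well at 51.2 CPM. The order was not peculiar to these genes. Among all members, 9 were highest in untreated well 3 and 7 lowest in untreated well 2. Outside the members, Lyz2, Csf1r, Cybb, Hp, Mmp8 and Cd177 had well 2 lowest and well 3 highest in both groups. Untreated wells spread widely, with the highest 1.85 times the lowest for Ngp, 1.79 times for Camp and 1.78 times for Ltf, and treated wells less so, at 1.23, 1.35 and 1.28 times. Deviations from the group means were correlated over the 6 libraries at Pearson r = 0.987 for Ngp with Ltf, 0.963 for Ngp with Camp and 0.962 for Camp with Ltf, as a description of libraries that share depth and scaling. Other members shared part of these deviations. S100a9 correlated at 0.908 with Ltf, 0.884 with Ngp and 0.827 with Camp, and Lcn2 at 0.758 with Ltf. S100a6 correlated at 0.78 with Ngp, 0.717 with Ltf and 0.697 with Camp, and S100a4 at 0.611 with Ngp. Values with Ngp were lower for S100a10 (0.242) and S100a11 (-0.109). The summed level of Ngp, Camp and Ltf was 181, 128 and 233 CPM untreated and 131, 109 and 137 CPM treated.

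**Figure D2:**
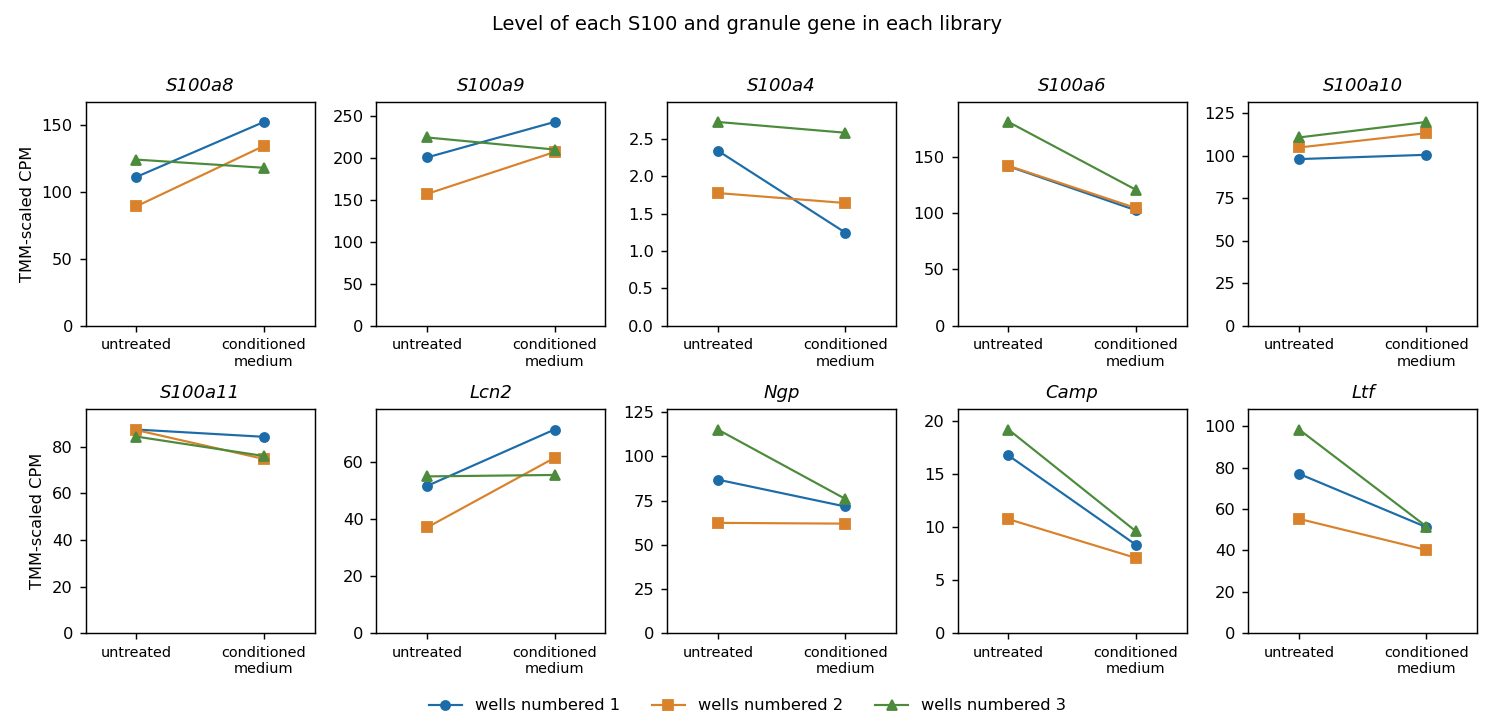
TMM-scaled CPM (y axis, from 0 in each panel) of each gene in each library, with the group on the x axis and a line joining wells of the same number. Each line for Camp, Ltf and S100a6 falls, as does each line for Ngp, S100a4 and S100a11, some of them only slightly. S100a8 and S100a9 have 2 lines rising and that of the wells numbered 3 falling slightly.

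The calprotectin genes S100a8 and S100a9 and the lipocalin gene Lcn2 were higher in conditioned medium in the wells numbered 1 and 2. S100a8 (ENSMUSG00000056054, chromosome 3, 90668978 to 90670035) was at 111, 89.2 and 124 CPM untreated and at 152, 134 and 118 CPM in conditioned medium. Untreated well 3 exceeded treated well 3, so the groups overlapped. Its log2 fold change was 0.32 (95% interval 0.047 to 0.59, edgeR adjusted p = 0.0803), and it rose with the block (0.32, SE 0.085, edgeR adjusted p = 0.00775). S100a9 (chromosome 3, 90692632 to 90695721), the member with the highest level, was at 201, 157 and 225 CPM untreated and at 243, 207 and 210 CPM treated. It had a log2 fold change of 0.18 (95% interval -0.081 to 0.44, edgeR adjusted p = 0.290) and rose with the block (0.19, edgeR adjusted p = 0.0372).

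Lcn2 (chromosome 2, 32384633 to 32388252) was at 51.6, 37.0 and 54.9 CPM untreated and at 71.3, 61.4 and 55.4 CPM treated. The groups did not overlap, but treated well 3 and untreated well 3 differed by a ratio of only 1.01. The log2 fold change was 0.39 (SE 0.14, edgeR adjusted p = 0.0636), and Lcn2 rose with the block (0.40, SE 0.090, edgeR adjusted p = 0.00268). Single wells moved the estimates of these 3 genes in both directions. Without untreated replicate 2 the log2 fold change was lower, at 0.20 for S100a8 (edgeR adjusted p = 0.240), 0.049 for S100a9 (0.744) and 0.24 for Lcn2 (0.152). Without conditioned-medium replicate 1 it was also lower, at 0.22 for S100a8 (adjusted p = 0.269), 0.10 for S100a9 (0.632) and 0.29 for Lcn2 (0.221). Without both wells numbered 3 the log2 fold change was 0.52 for S100a8 (edgeR adjusted p = 0.00134), 0.33 for S100a9 (0.0300) and 0.58 for Lcn2 (0.00451). Leaving out untreated replicate 3 alone gave calls for S100a8 (adjusted p = 0.0272) and Lcn2 (0.0318) but not for S100a9 (0.30, adjusted p = 0.0718), and leaving out conditioned-medium replicate 3 alone gave calls for S100a8 (0.0293) and Lcn2 (0.0347).

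Of the other S100 genes among the 10, S100a6, S100a11 and S100a4 were lower in the treated well of each pair. Among them S100a6 alone passed the test on the group alone. S100a6 (chromosome 3, 90612882 to 90624181), which encodes calcyclin, was at 141, 142 and 181 CPM untreated and at 102, 104 and 121 CPM treated, with no overlap. It was 1.42-fold lower (log2 fold change -0.50, SE 0.10, edgeR adjusted p = 0.00491). Under all 16 alternatives S100a6 (adjusted p at most 0.0249) and Camp (at most 0.0340) kept their call and direction.

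S100a11 (chromosome 3, 93520488 to 93526287) was at 87.4, 87.2 and 84.4 CPM untreated and at 84.3, 74.8 and 76.0 CPM treated. The groups were barely apart, untreated well 3 lying just above treated well 1. Its log2 fold change was -0.14 (95% interval -0.26 to -0.019, edgeR adjusted p = 0.0834, and 0.0236 with the block, 0.0302 without conditioned-medium replicate 1). S100a10 (chromosome 3, 93555080 to 93564643), the annexin A2 partner, was at 97.97, 105 and 111 CPM untreated and at 100.5, 113 and 120 CPM treated. It was higher by a ratio of 1.03, 1.08 and 1.08 in the 3 pairs of wells, which did not pass the test (log2 fold change 0.090, 95% interval -0.069 to 0.25, edgeR adjusted p = 0.391, and 0.109 with the block).

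S100a4 (chromosome 3, 90603771 to 90606045) encodes a myosin-binding S100 protein linked to cell motility. It had few counts, 43 to 68 in untreated and 38 to 75 in treated libraries. Its span overlaps Gm42674 on the same strand, which had 0 counts in each library. How reads lying in both genes were counted is not given, so the count of S100a4 is uncertain. S100a4 stood at 2.34, 1.77 and 2.73 CPM untreated and at 1.25, 1.64 and 2.58 CPM treated. Groups overlapped, and the log2 fold change of -0.33 had a 95% interval of -0.98 to 0.33 (edgeR adjusted p = 0.451), so treated levels between 0.506 and 1.26 times the untreated level lie within it. Leaving out single libraries gave -0.66 to -0.12.

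Levels per kilobase used the gene length of the deposited table, which need not be that of the transcripts present, so comparisons between genes are approximate. On that scale S100a9 led at 372 CPM per kilobase in untreated wells. S100a11 followed at 169, S100a8 at 156, S100a6 at 113, S100a10 at 86.2, Ngp at 72.1, Ltf at 22.3, Camp at 20.5 and Lcn2 at 18.2. S100a4, whose count is uncertain, stood at 3.91 CPM per kilobase. Neighbours whose ranges over the wells overlapped, and which therefore are not ordered beyond their spread, were S100a11 and S100a8, S100a8 and S100a6, S100a10 and Ngp, Ltf and Camp, and Camp and Lcn2. In conditioned medium S100a8 stood above S100a11, at 194 against 153 CPM per kilobase, and Lcn2 above Ltf and Camp, at 23.9 against 13.8 and 11.01, in each case with ranges apart.

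Ratios between members within a library remove depth and scaling, and 7 were compared after the values above had been seen. The ratio of Ngp to Camp was higher in each treated well, at 5.19, 5.81 and 6.01 in untreated and 8.60, 8.74 and 7.91 in treated wells. The ratio of Ngp to Ltf was 1.13, 1.13 and 1.17 untreated and 1.398, 1.54 and 1.47 treated, and that of Ltf to Camp was 4.603, 5.15 and 5.13 against 6.15, 5.67 and 5.37. Lcn2 to Ngp went from 0.594, 0.594 and 0.477 to 0.995, 0.990 and 0.729, higher in each pair of wells. S100a8 to S100a6, both on chromosome 3, went from 0.785, 0.629 and 0.686 to 1.49, 1.28 and 0.977. For each of these 5 ratios the groups were apart, and the two-sided exact permutation test gave p = 0.1, the smallest that 3 against 3 allows (0.14 adjusted over the 7). S100a8 to Lcn2 lay between 2.13 and 2.41, and S100a9 to S100a8 between 1.54 and 1.81, with groups overlapping (exact permutation p = 0.2 for both). Both ratios were lower in the treated well of each pair.

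**Figure D3:**
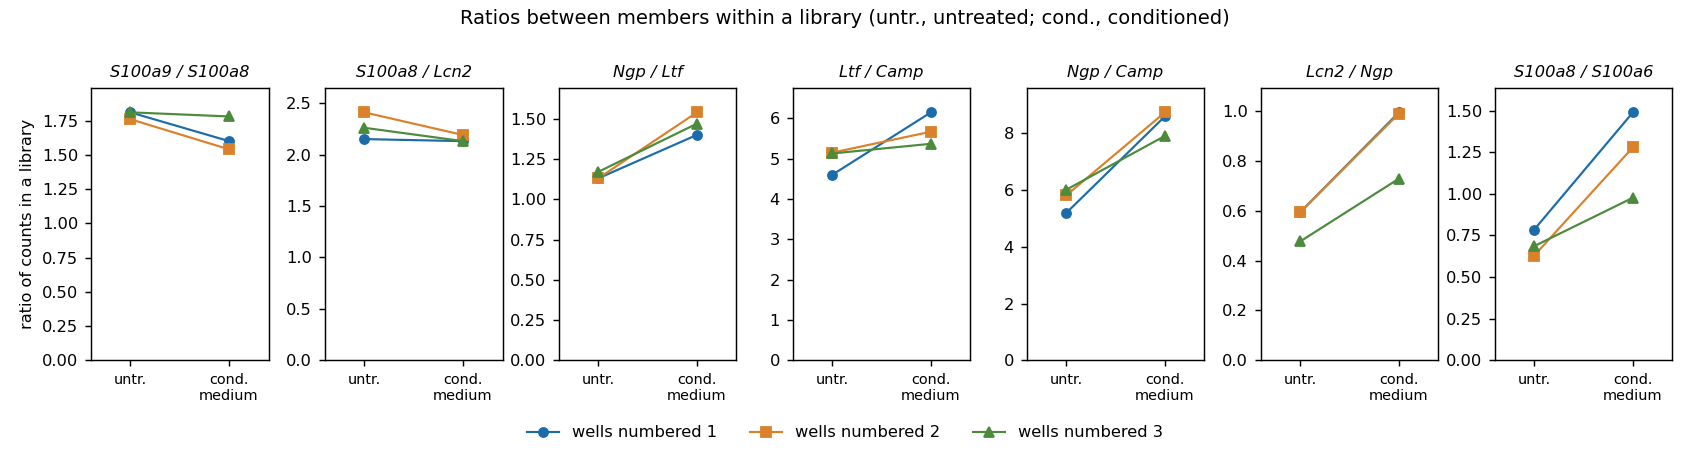
Ratio of the counts of a pair of genes in each library (y axis, from 0), by group, with wells of the same number joined. The 3 treated wells lie above the 3 untreated wells for Ngp to Camp (7.91 to 8.74 against 5.19 to 6.01), while S100a8 to Lcn2 lies between 2.13 and 2.41 with groups overlapping.

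From S100a1 to S100a9 the S100 genes of chromosome 3 lie close together, S100a11 and S100a10 lie 2852 and 2886 kb from S100a8, and S100b, S100g and S100z are on chromosomes 10, X and 13. Of 10 further S100 genes 3 could be tested. S100a1, which lies 158 kb before S100a8 and encodes a calcium sensor best known from muscle, was at 195 ± 8.20 CPM untreated (282 CPM per kilobase), and fell 1.80-fold to 108 ± 4.58 CPM (edgeR adjusted p = 4.48e-06). S100a13, beside it, had a log2 fold change of -0.11 (95% interval -0.26 to 0.036, edgeR adjusted p = 0.246), and S100a16 was scarce, with 4 to 20 counts per library. The other 7 were too low to test, among them S100a5 and S100z with 0 counts in each library. On chromosome 3 S100a4, S100a5 and S100a6 follow each other at mean untreated levels of 3.91, 0 and 113 CPM per kilobase, the count of S100a4 being uncertain.

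The gene lists that follow were chosen with earlier results of these data known. Their counts stand beside 27.9% of all tested genes changed (12.6% higher, 15.2% lower), or 36.3% with the block (17.0% higher, 19.3% lower). Of 6 tested primary granule genes 1 rose and 0 fell, and 4 rose with the block, without conditioned-medium replicate 3 and without both wells numbered 3. Prtn3, encoding proteinase 3, rose from 5.36 ± 1.13 to 11.4 ± 3.15 CPM (edgeR adjusted p = 0.00486), and its span overlaps Plppr3 on the opposite strand, so its count is uncertain. Elane, the neutrophil elastase gene, was at 9.20, 9.46 and 5.45 CPM untreated and at 13.9, 16.8 and 7.99 CPM treated, with lower values in the wells numbered 3 (edgeR adjusted p = 0.0950, and 4.01e-05 with the block). Mpo, the myeloperoxidase gene, was at 13.6, 17.0 and 9.98 CPM untreated and at 21.6, 23.2 and 10.2 CPM treated (edgeR adjusted p = 0.294, and 0.00365 with the block). In untreated wells the primary granule genes were thus lowest in well 3, where Ngp, Camp and Ltf were highest, and Bpi, also of this list, had 0 counts in each library.

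Of 13 other secondary and tertiary granule genes 3 rose, 3 fell and 7 did not pass, with a median log2 fold change of -0.21. With the block 4 rose and 4 fell, Mmp9, the gelatinase B gene, being added to the rises (edgeR adjusted p = 0.00773) and Itgb2l, an integrin gene, to the falls (0.0153). Mmp8, the neutrophil collagenase gene, rose 2.07-fold from 38.2 ± 6.36 to 78.9 ± 6.35 CPM (edgeR adjusted p = 0.000130). Cfp, encoding the complement regulator properdin, rose 1.59-fold to 869 ± 55.2 CPM, and Mmp25, a membrane-anchored metalloproteinase gene, fell 1.82-fold to 2.93 ± 0.484 CPM (adjusted p = 0.00353). Hp, the haptoglobin gene, rose 1.76-fold from 63.7 ± 21.45 to 112 ± 15.8 CPM (edgeR adjusted p = 0.01255). Cd177, Pglyrp1 and Chil1, of the same list, had log2 fold changes of -0.033, -0.16 and -0.30 and did not pass the test. Cybb, Slc11a1 and Cfp are also expressed by macrophages.

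Among 10 tested markers of the neutrophil surface and of late maturation 7 rose and 0 fell (8 and 0 with the block), with a median log2 fold change of 0.98. Il1r2, the interleukin-1 decoy receptor gene, rose 6.76-fold from 0.642 ± 0.122 to 4.37 ± 1.05 CPM (edgeR adjusted p = 7.63e-05), Stfa2l1, a stefin, 3.72-fold to 2.40 ± 0.478 CPM, and Asprv1, a protease gene, 2.81-fold to 7.04 ± 1.57 CPM. Ly6g, which defines mouse neutrophils, had 2, 7 and 13 counts in untreated and 21, 24 and 16 in treated libraries (log2 fold change 1.16, edgeR adjusted p = 0.114). The summed level of this list was 275 to 290 CPM untreated and 316 to 352 CPM treated, mostly from Csf3r, the G-CSF receptor gene, at 211 to 240 CPM, and none of its markers was at 0 in every library. Which cells made the transcripts of this list was not measured, so its rises need not be those of neutrophils. What part neutrophils have in the values of the 10 genes was not tested.

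**Figure D4:**
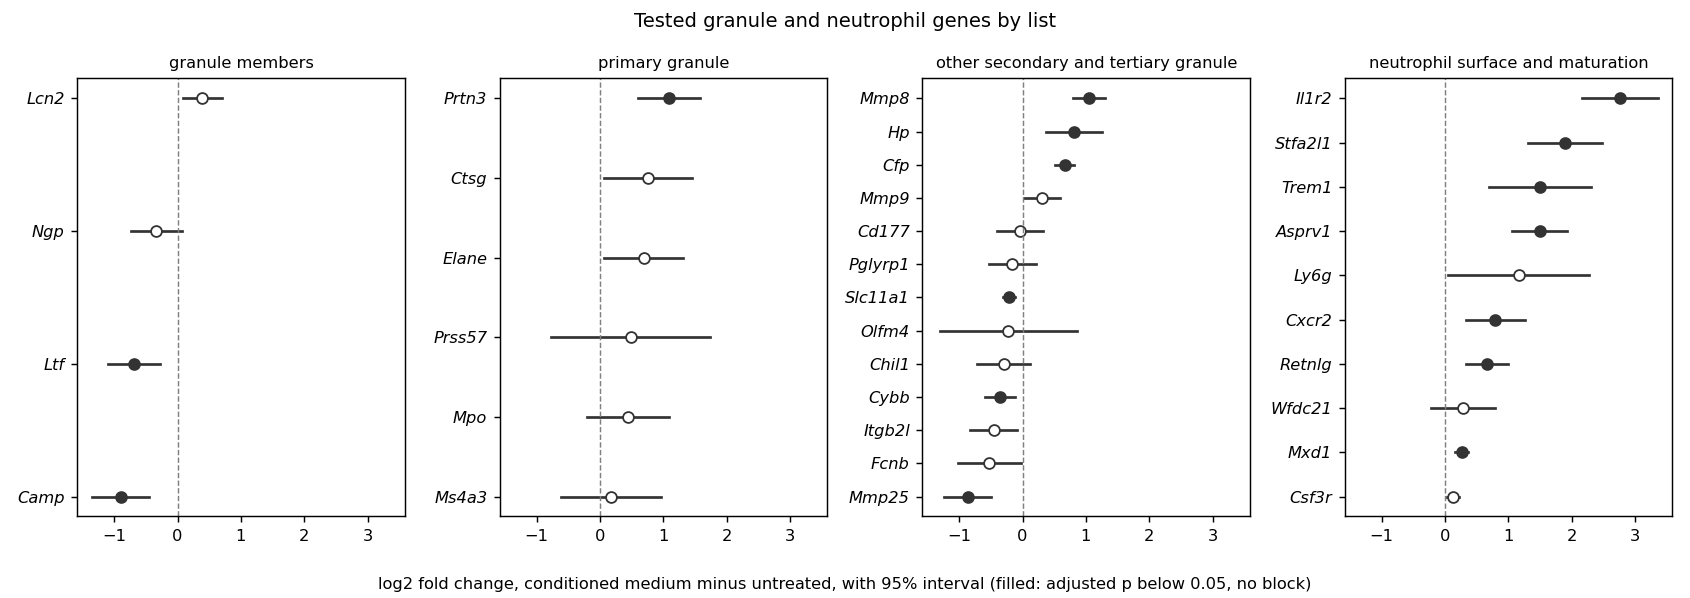
Log2 fold change with 95% interval (x axis) of each tested gene in 4 lists (panels). Filled circles passed an adjusted p of 0.05. Among the secondary and tertiary granule genes filled circles lie on both sides of 0 (3 and 3), whereas all 7 filled circles of the neutrophil surface list lie right of 0.

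Markers of other cell types moved with the groups too. Of 10 monocyte markers 6 rose and 1 fell (6 and 2 with the block, and 6 and 2 without conditioned-medium replicate 3). F13a1, the factor XIII subunit gene, rose from 65.0 ± 5.86 to 981 ± 4.65 CPM and Chil3, a chitinase-like gene also found in neutrophil granules, from 70.3 ± 6.78 to 148 ± 14.7 CPM, while Cx3cr1, whose span overlaps several genes, fell 2.26-fold. The 10 macrophage markers split into 5 that rose and 3 that fell, with Mrc1 and Itgam higher (log2 fold changes 0.63 and 0.55) and Cd68 lower (-0.66). All 6 tested mast cell and basophil markers fell, among them Prss34 and Mcpt8 (log2 fold changes -1.58 and -1.52) and Kit (-0.77), but 2 did without untreated replicate 2 and 3 without conditioned-medium replicate 1. Of 3 tested B and T cell markers 1 fell, Ms4a1 (-0.89), and 0 did without untreated replicate 1, without untreated replicate 3 or without conditioned-medium replicate 1. Of the erythroid markers Hbb-bs and Hbb-bt were at 0 in each library, as was the mast cell gene Cma1. Of the epithelial carcinoma markers Cdh1 alone was testable (log2 fold change -0.25, edgeR adjusted p = 0.616), and Krt19 had 0 to 9 counts per library. The part of these cells in the values of the 10 genes was not tested.

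Binding partners and receptors of S100 proteins moved in both directions. Of 12, 4 rose and 6 fell (5 and 6 with the block), with a median log2 fold change of -0.043. Emb, encoding embigin, a membrane receptor of calprotectin, rose 2.13-fold from 256 ± 24.6 to 545 ± 9.98 CPM (edgeR adjusted p = 5.16e-06). The annexin genes fell: Anxa1, partner of S100a11, 1.98-fold from 456 ± 64.0 to 230 ± 38.2 CPM (adjusted p = 0.000480), and Anxa2, partner of S100a10, 1.30-fold from 379 ± 20.3 to 291 ± 18.9 CPM (adjusted p = 0.00134). Tlr4, another calprotectin receptor gene, had a log2 fold change of 0.15 (edgeR adjusted p = 0.101, and 0.0207 with the block), and Ager, encoding RAGE, rose from 7 to 10 counts in untreated to 16 to 26 in treated libraries (edgeR adjusted p = 0.0435, not passing in 5 of 6 fits that left out 1 library). The rises numbered 1 without untreated replicate 2 and without untreated replicate 3, and 2 without untreated replicate 1 and without conditioned-medium replicates 1 or 3, and the falls numbered 3 without untreated replicates 1 or 2 and without conditioned-medium replicate 1.

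Of 5 tested receptors and partners of granule proteins 2 rose and 1 fell (3 and 1 with the block, which added Mmp9), the rises numbering 1 without untreated replicate 1, without untreated replicate 2 and without conditioned-medium replicate 1. Lrp1, a scavenging receptor that takes up lactoferrin, fell 1.57-fold from 2463 ± 128 to 1574 ± 58.8 CPM (edgeR adjusted p = 3.16e-05). P2rx7 and Fpr2, receptors through which cathelicidin acts, rose 1.18-fold and 1.46-fold (edgeR adjusted p = 0.00247 and 0.0363), and Fpr2 did not pass without untreated replicates 1 or 2 or without conditioned-medium replicates 1 or 3. The lipocalin-2 receptor gene Slc22a17 had 10 to 33 counts per library and did not pass the test (adjusted p = 0.152).

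Of 13 tested regulators of granule genes 3 rose and 1 fell (4 and 3 with the block, and 2 fell without conditioned-medium replicate 2). Runx1, a haematopoietic factor, rose 1.32-fold and Stat3 1.26-fold (edgeR adjusted p = 0.000356 and 0.00213), while Nfkbiz, encoding IkB-zeta, a nuclear protein needed for Lcn2 induction in macrophages, fell 1.52-fold from 79.2 ± 7.69 to 52.3 ± 5.33 CPM (edgeR adjusted p = 0.000829). Stat3 overlaps Stat5a on the opposite strand, so its count is uncertain. Cebpe, which drives secondary granule genes, had 40 to 72 counts per library and a log2 fold change of 0.14 (95% interval -0.35 to 0.64). Among 7 tested secreted acute-phase and antiprotease genes 4 rose and 1 fell: Lrg1 rose 2.71-fold, and Wfdc17, a whey acidic protein gene, fell 1.52-fold (edgeR adjusted p = 0.000274).

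Among 11871 tested genes with a mean of at least 1 CPM, those with the pattern over the 6 libraries most like each member were listed by Pearson r of log2 CPM. S100a8 was the gene closest to Lcn2 (Pearson r = 0.989, Spearman rho = 0.943). Wfdc21, of the neutrophil list, was closest to S100a9 (r = 0.995), and Chil1, a chitinase-like granule gene, was among the 5 closest to Ngp (0.965). The leading genes for the rest were Fbxo10 for S100a8 (0.991), Me1 for Ngp (0.986), Trav13-4-dv7 for Camp (0.994), Abcg2 for Ltf (0.996), Gpr89 for S100a6 (0.997), Gm10425 for S100a4 (0.994), Slc1a3 for S100a10 (0.990) and Id3 for S100a11 (0.989). These values describe 6 libraries in 2 groups and carry no test.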

How the data were processed

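Poly(A) RNA was captured on beads and copied with random primers, per the labels' protocols, which do not say whether strand was kept. The authors deposited raw counts per gene for each library. The submitters' processing notes name HISAT2, featureCounts and the build GRCm38. Which versions and annotation they used, and how strand and multiply mapped reads were treated, is not given in the sources used here. The deposited table also gives gene lengths. Symbols came from the supplied gene name table for 55154 of 55421 identifiers.

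Genes were kept by filterByExpr, scaled by TMM and tested by quasi-likelihood in edgeR (versions: edgeR 4.0.16, limma 3.58.1, DESeq2 1.42.0, R 4.3.3) on the group alone, with Benjamini-Hochberg adjustment over 13853 genes and a threshold of 0.05. SE was derived from the F statistic, and the script was tested on simulated data. Alternatives were other scalings, filters, tests and fits, thinning, the replicate block, and leaving out libraries.

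Deviations from the group means correlated at 0.376, 0.204 and 0.397 between wells of the same number and at -0.36 to 0.0659 between others, over 13853 genes, so the numbers were taken to pair the wells. This pairing comes from the data, since no label says what a number stands for. Deviations within a group cancel out for each gene, so positive values for the same numbers push the others down. The values between other numbers are therefore no separate support, and calls gained with the block rest on the pairing. P-values rest on the variation among the wells, and nothing in the labels says that this is more than technical. The members and lists were chosen with earlier results of these data known. All members are named, and from each list the 3 genes with the smallest p past the threshold, or the 1 with the smallest p. Elane, Mpo, Cd177, Pglyrp1, Chil1, Hp, Ly6g, Csf3r, Tlr4, Ager, Slc22a17, Cebpe, S100a13, S100a16, Mmp9, Itgb2l and Krt19 were added after their values were seen.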

Additional observations from a re-analysis of the deposited data

How the results depend on the processing

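Of 160 estimates for the 10 members under alternatives (16 for each), 136 kept their side of the threshold, 21 gained a call and 3, all of Ltf, lost one; no member's estimate changed sign. With 3 falls and 0 rises in the fit on the group alone, the replicate block gave 5 falls and 3 rises. Rises numbered 2 without scaling beyond the total count, without the low-count filter and with DESeq2, and 3 without both wells numbered 3. Leaving out 1 library gave 0 to 2 rises and 2 to 4 falls, and 2725 to 3654 changed genes. The block changed no call of the members other than S100a8, S100a9, S100a11, Lcn2 and Ngp. Without scaling the median of all genes was 0.070, beside 0.013. S100a4 has the fewest counts of the members, 38 to 75 per library, and its treated wells differed 2.07-fold. The cause of these differences was not tested.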
